A study of Rattus norvegicus with 42 samples.

Results

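The cell division genes examined here are 33 named genes of mitosis and DNA replication, read from both count tables by gene symbol. They are 33 of the 30044 symbols that both tables hold. Of these, 21 act mainly around mitosis (Mki67, Top2a, Cdk1, Ccnb1, Ccnb2, Ccna2, Bub1, Bub1b, Aurka, Aurkb, Plk1, Birc5, Cdc20, Cenpe, Cenpf, Kif11, Kif20a, Kif23, Tpx2, Ect2 and Foxm1), 10 belong to DNA replication (Mcm2 to Mcm7, Pcna, Rrm1, Rrm2 and Tyms), and Cdc6 and Ccne2 act at the entry into S phase. The data are RNA-seq read counts from lung pieces of 42 male Fischer 344 rats (F344/DuCrl), an inbred strain, bought at 3 months of age. Each rat ate a regular diet, with 18% of its calories from fat, or a high-fat diet, with 60%. After 2 weeks on the diet, the rats inhaled crystalline silica (15 mg/m3, 6 h a day for 5 days) or air in a whole-body chamber, and they stayed on their diet until the lungs were taken 3 or 9 months after exposure. At 3 months the groups were regular diet with air (n = 4), regular diet with silica (n = 5), high-fat diet with air (n = 5) and high-fat diet with silica (n = 5). At 9 months they were regular diet with air (n = 6), regular diet with silica (n = 5), high-fat diet with air (n = 6) and high-fat diet with silica (n = 6). Rats are numbered within a group in the order of their tags, and each rat belongs to 1 group only.

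A cell that divides first copies its DNA and then separates the copies. The Mcm2 to Mcm7 proteins form the ring-shaped helicase that opens DNA at replication origins, loaded there with the help of Cdc6. Pcna is the sliding clamp of the DNA polymerases, and ribonucleotide reductase (Rrm1 and Rrm2) and thymidylate synthase (Tyms) supply DNA building blocks. The cyclin-dependent kinase Cdk1 with its cyclins drives entry into mitosis, and the other mitosis genes build the spindle, attach chromosomes to it and divide the cell. RNA of most of these genes is made mainly in cycling cells. The adult lung turns over slowly, so levels are low in resting tissue. Many mitosis genes carry a cell cycle homology region (CHR) in their promoter, often near CCAAT boxes, and many replication genes carry E2F sites.

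Promoters are shown for the pair of genes in each class with the smallest p in the regular-diet silica comparison at 9 months, among those with a promoter in the table. The sequences are the 250 bases before the annotated start, 5′ to 3′, from RefSeq on the GRCr8 build. The read counts were made on another build, Rnor_6.0, and no position in it is used. Capitals mark CHR matches, CCAAT boxes and E2F matches on either strand, so that some capitals spell the reverse complement. The CHR words searched were TTTGAA and, with 1 base changed, TTCGAA. The E2F words searched were TTCCCGC and TTCGCGC. Also searched were TTGGCGC and TTGCCGC. Overlapping matches run together. The Mki67 stretch lies at chr1:199952594-199952843 on the minus strand, Top2a at chr10:84473094-84473343 on the minus strand, Mcm5 at chr19:13488563-13488812 on the plus strand and Rrm1 at chr1:166235654-166235903 on the plus strand.
Mki67: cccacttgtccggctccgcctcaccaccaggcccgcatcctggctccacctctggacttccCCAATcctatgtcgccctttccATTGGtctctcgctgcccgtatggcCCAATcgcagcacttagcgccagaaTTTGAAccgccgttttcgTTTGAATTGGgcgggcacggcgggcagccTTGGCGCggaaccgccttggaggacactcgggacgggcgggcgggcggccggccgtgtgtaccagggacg
Top2a: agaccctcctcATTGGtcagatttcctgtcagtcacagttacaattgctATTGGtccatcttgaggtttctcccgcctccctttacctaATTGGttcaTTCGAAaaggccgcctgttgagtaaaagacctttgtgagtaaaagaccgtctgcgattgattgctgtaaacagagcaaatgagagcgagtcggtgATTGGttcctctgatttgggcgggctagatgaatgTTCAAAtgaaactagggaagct
Mcm5: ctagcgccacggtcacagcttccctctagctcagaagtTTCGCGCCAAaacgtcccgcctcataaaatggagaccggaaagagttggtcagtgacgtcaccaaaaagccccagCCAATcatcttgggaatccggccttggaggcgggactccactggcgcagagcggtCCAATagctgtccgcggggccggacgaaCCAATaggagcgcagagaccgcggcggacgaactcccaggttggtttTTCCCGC
Rrm1: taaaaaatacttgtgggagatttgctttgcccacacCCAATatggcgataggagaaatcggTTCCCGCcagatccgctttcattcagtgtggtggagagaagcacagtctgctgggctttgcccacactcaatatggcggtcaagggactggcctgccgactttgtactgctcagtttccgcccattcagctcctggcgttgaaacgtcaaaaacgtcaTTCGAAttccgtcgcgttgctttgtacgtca

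The Mki67 stretch holds 2 CHR matches, 4 CCAAT boxes and 1 E2F match, and that of Top2a holds 2 CHR matches and 4 CCAAT boxes. Mcm5 has 3 CCAAT boxes and 3 E2F matches but no CHR match, and Rrm1 has 1 match of each kind. Promoters were found for 25 of the 33 genes, of which 17 were mitosis genes and 8 replication genes. A CHR match was present in 9 of the 17 mitosis promoters (52.9%) and 3 of the 8 replication promoters (37.5%), beside 17.3% of all 27457 stretches of this length. CCAAT boxes were present in 14 mitosis promoters (82.4%), 6 replication promoters (75.0%) and 34.3% of all. An E2F match was present in 4 mitosis promoters (23.5%), 6 replication promoters (75.0%) and 8.0% of all. Both a CHR match and a CCAAT box were found in 8 mitosis promoters (47.1%) and 2 replication promoters (25.0%), against 6.2% of all. Of the 9 mitosis promoters with more than 1 CCAAT box, 3 had neighbouring boxes 30 to 35 bases apart: Cdk1 and Ccnb1 with a spacing of 32 bases, and Ccnb2 with 33 bases. A match describes letters only and shows no binding.

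**Figure D1:**
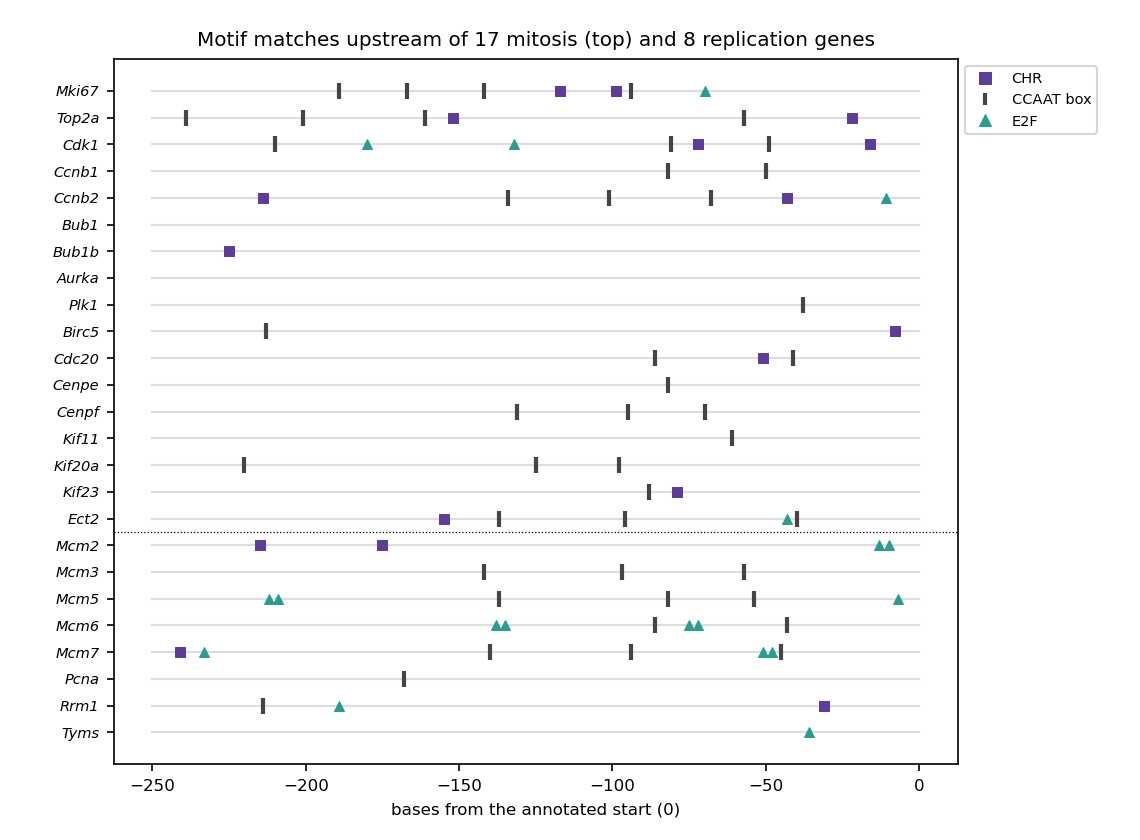
Positions of motif matches in the 250 bases before the annotated start of 17 mitosis genes (above the dotted line) and 8 replication genes. The horizontal axis is the distance in bases from the start; squares are CHR matches, bars CCAAT boxes and triangles E2F matches. E2F matches lie in 6 of the 8 replication promoters and in 4 of the 17 mitosis promoters.

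The p-values set a difference between groups against the spread between rats within groups, estimated over all groups of a fit. Counts per rat totalled 5143424 to 8259635 at 3 months and 3078216 to 8319382 at 9 months. The lung markers Sftpc, a surfactant protein of alveolar type 2 cells, and Ager, a receptor of alveolar type 1 cells, were high in all rats, with medians of 9082 and 1497 CPM, which are counts scaled to a library of fixed size. CPM are given relative to the scaled library size of the rat's own table, so levels at 3 and 9 months are on separate scales. The share of counts on the ribosomal RNA genes Rnr1 and Rnr2 was 0.957% to 1.26% in the group means at 3 months. At 9 months it was 1.22% ± 0.699 (SD, n = 6) on the regular diet with air, 3.67% ± 1.07 (n = 5) with silica, 6.21% ± 1.11 (n = 6) on the high-fat diet with air and 7.66% ± 0.217 (n = 6) with silica. It moved with diet and exposure, and calls that were lost in a fit with this share as a covariate are named. At 9 months its ranges in air and silica rats did not overlap, at 0.3752% to 2.285% and 2.597% to 5.347% (regular diet). The high-fat diet gave 4.62% to 7.188% and 7.291% to 7.849%. Between diets the 9-month ranges did not overlap either, in air or after silica. Share and group thus cannot be told apart at 9 months, and a lost call does not show which of them counts.

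Silica exposure was followed by higher levels of most of these genes on both diets and at both times. At 3 months, 23 of the 32 genes tested were higher on the regular diet and 23 on the high-fat diet, at an adjusted p below 0.05 in edgeR's quasi-likelihood test, and none was lower. Of all genes tested, 10.2% and 9.23% were called higher, and 6.6% and 8.19% lower. At 9 months, 28 rose and 1 fell on the regular diet, and 29 rose and 1 fell on the high-fat diet, where 24.5% and 26.7% of all genes were called higher and 20.6% and 24.9% lower. The gene left out, Ccnb2 (cyclin B2), had 0 to 9 counts in each rat and was not tested. Because the lungs are bulk tissue, a change in the number of cells of a type and a change in RNA per cell cannot be told apart.

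The size of the change is given by class. The median log2 fold change of the 20 tested mitosis genes was 0.70 on the regular diet and 0.78 on the high-fat diet at 3 months, and 1.24 and 1.28 at 9 months. For the 10 replication genes it was 0.41, 0.45, 0.49 and 0.67 in the same order. The median over all genes lay between -0.01 and 0.01 in these comparisons. Among mitosis genes, 15 and 14 rose at 3 months and 19 and 19 at 9 months. Among replication genes, 8 and 8 rose at 3 months, and 7 and 8 rose while 1 fell at 9 months. No test was made of the difference between classes.

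Summed levels separated exposed from unexposed rats. The summed mitosis level on the regular diet at 3 months was 207 to 251 CPM in air rats and 290 to 367 CPM in silica rats. The high-fat diet gave 163 to 232 CPM in air and 287 to 341 CPM after silica. At 9 months the ranges were 172 to 229 and 380 to 488 CPM on the regular diet, and 182 to 245 and 363 to 483 CPM on the high-fat diet. The replication sum ran from 223 to 257 in air and 281 to 306 CPM in silica rats (regular diet) and from 227 to 260 and 292 to 328 CPM (high-fat diet) at 3 months. At 9 months it ran from 211 to 227 and 273 to 313 CPM, and from 199 to 213 and 256 to 334 CPM. Air and silica ranges did not overlap in any of these 8 pairs. Single genes whose silica rats all lay above all air rats numbered 18 of 32 and 20 of 32 at 3 months (8.77% and 7.37% of all genes tested), and 26 and 27 at 9 months (14% and 16.8% of all genes tested).

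**Figure D2:**
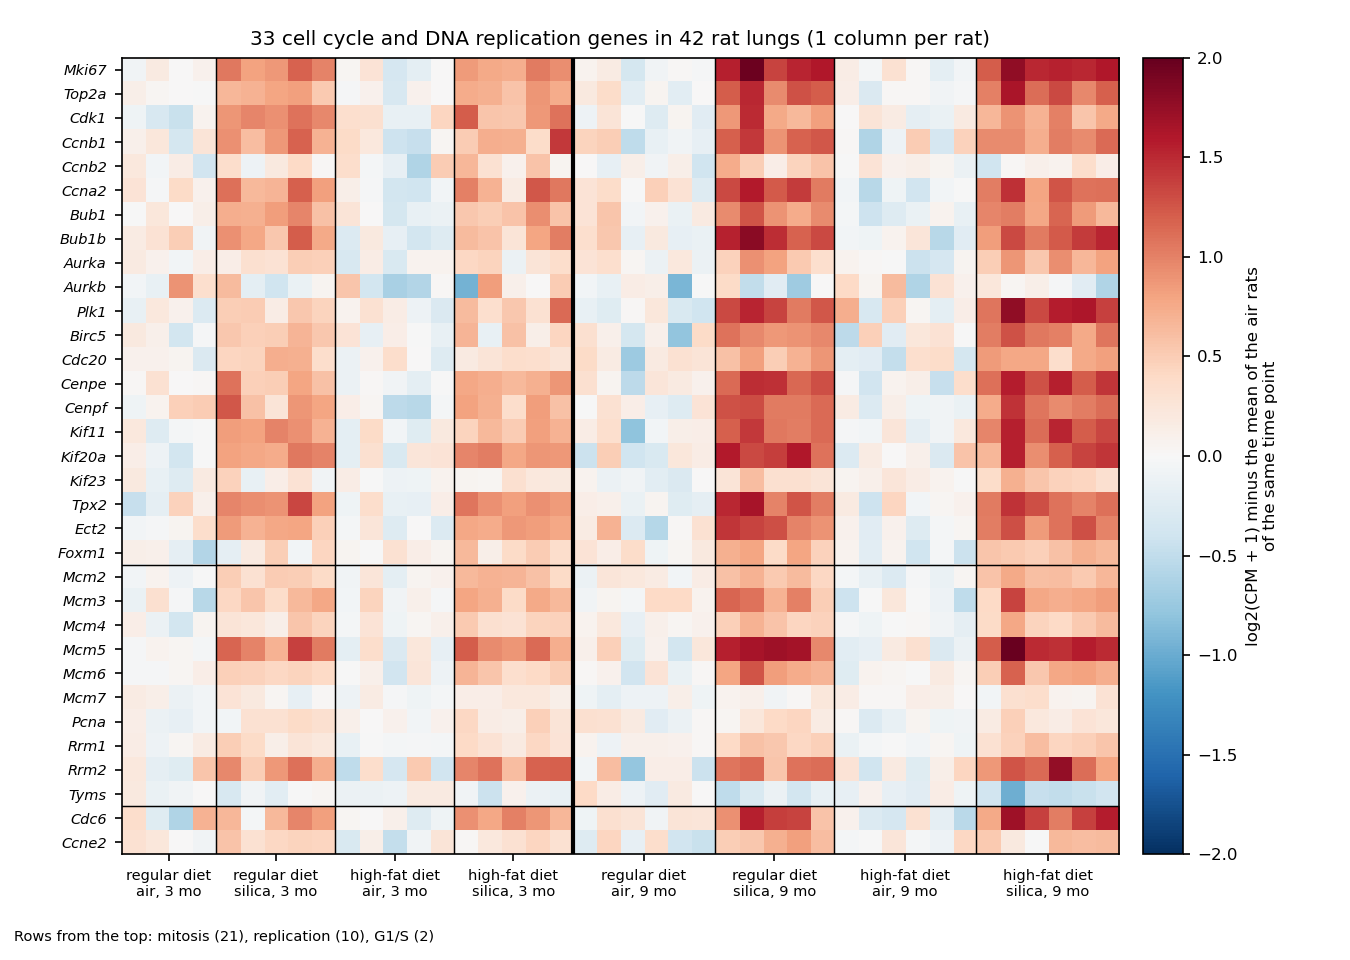
Level of each of the 33 genes (rows) in each of the 42 rats (columns), as log2(CPM + 1) minus the mean of the air rats of the same time point. Red is higher and blue lower than that mean; thin lines part the 8 groups and the thick line parts 3 from 9 months. The silica columns are red for most genes, deeper at 9 months, while the rows of Aurkb and Mcm7 show no such block and that of Tyms is blue in the 9-month silica columns.

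Single rats are described next. Each of the 21 silica rats lay above the mean of the air rats of its diet and time in 28 to 31 of the 32 genes. It lay above every such air rat in 23 to 28 genes on the regular diet and 25 to 28 on the high-fat diet at 3 months, and in 28 to 29 and 28 to 30 at 9 months. Rats of a group were not alike. On the regular diet at 9 months, silica rat 2 was the highest of its group in 21 of 32 genes. On the high-fat diet at 9 months, silica rat 2, the library with the fewest counts (3078216), was the highest in 18 genes, and silica rat 1 was the lowest in 15. These counts per rat were not made over all genes, so they do not show whether such ranks are particular to this set.

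Mki67, which encodes the Ki-67 protein of dividing cells, had the smallest p of all mitosis genes in all 4 silica comparisons. At 3 months on the regular diet it stood at 28.8, 34.2, 30.2 and 32.2 CPM in air rats and at 63.5, 53.4, 55.5, 69.6 and 60.8 CPM in silica rats. High-fat air rats had 31, 36.6, 23.7, 26.2 and 30.3 CPM and silica rats 55.4, 51.4, 50.4, 63.1 and 58.1 CPM. The groups did not overlap, and the log2 fold change was 0.94 (SE 0.10, adjusted p = 1.43e-06) on the regular diet and 0.91 (SE 0.10, adjusted p = 7.59e-07) on the high-fat diet. Regular-diet air rats at 9 months ranged from 27.3 to 39.5 CPM (median 35.2) and the silica rats had 106, 140, 91.8, 103 and 110 CPM. High-fat air rats ranged from 30.7 to 43.9 CPM (median 35.1) and silica rats from 83.4 to 122.3 CPM (median 103). Silica rats were thus about 3.17-fold and 2.84-fold above air rats, with log2 fold changes of 1.66 (SE 0.11, adjusted p = 4.12e-12) and 1.51 (SE 0.10, adjusted p = 4.78e-12).

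Top2a, the topoisomerase that untangles chromosomes before they part, moved in parallel. Its air rats had 21.1, 20.1, 19.6 and 19.4 CPM on the regular diet at 3 months, and its silica rats 31.5, 32.2, 34.4, 35.3 and 28.3 CPM. High-fat rats had 19.2, 20.6, 15.3, 20.7 and 19.6 CPM in air and 33.1, 32.4, 29.3, 36.8 and 33.3 CPM after silica. The log2 fold changes were 0.69 (SE 0.09, adjusted p = 1.44e-05) and 0.78 (SE 0.08, adjusted p = 8.45e-07), with no overlap of groups. At 9 months the fold was 2.35 on the regular diet, from 14.7 to 22.4 CPM in air (median 17.5) to 41, 50.8, 34, 43 and 41.2 CPM after silica. The high-fat diet gave a fold of 2.43, from 13.8 to 18.8 CPM (median 17.1) to 34.5 to 55 CPM (median 39.5). Foxm1, a transcription factor that activates mitosis genes, had log2 fold changes of 0.38 (adjusted p = 0.178) and 0.34 (adjusted p = 0.177) at 3 months. It rose at 9 months, from 5.28 to 7.57 CPM (median 6.46) to 9.87, 10.5, 7.64, 10.4 and 8.12 CPM on the regular diet, and from 3.93 to 5.99 CPM (median 5.1) to 8.24 to 9.85 CPM (median 8.87) on the high-fat diet. These are log2 fold changes of 0.55 (adjusted p = 0.000725) and 0.82 (adjusted p = 4.08e-06).

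**Figure D3:**
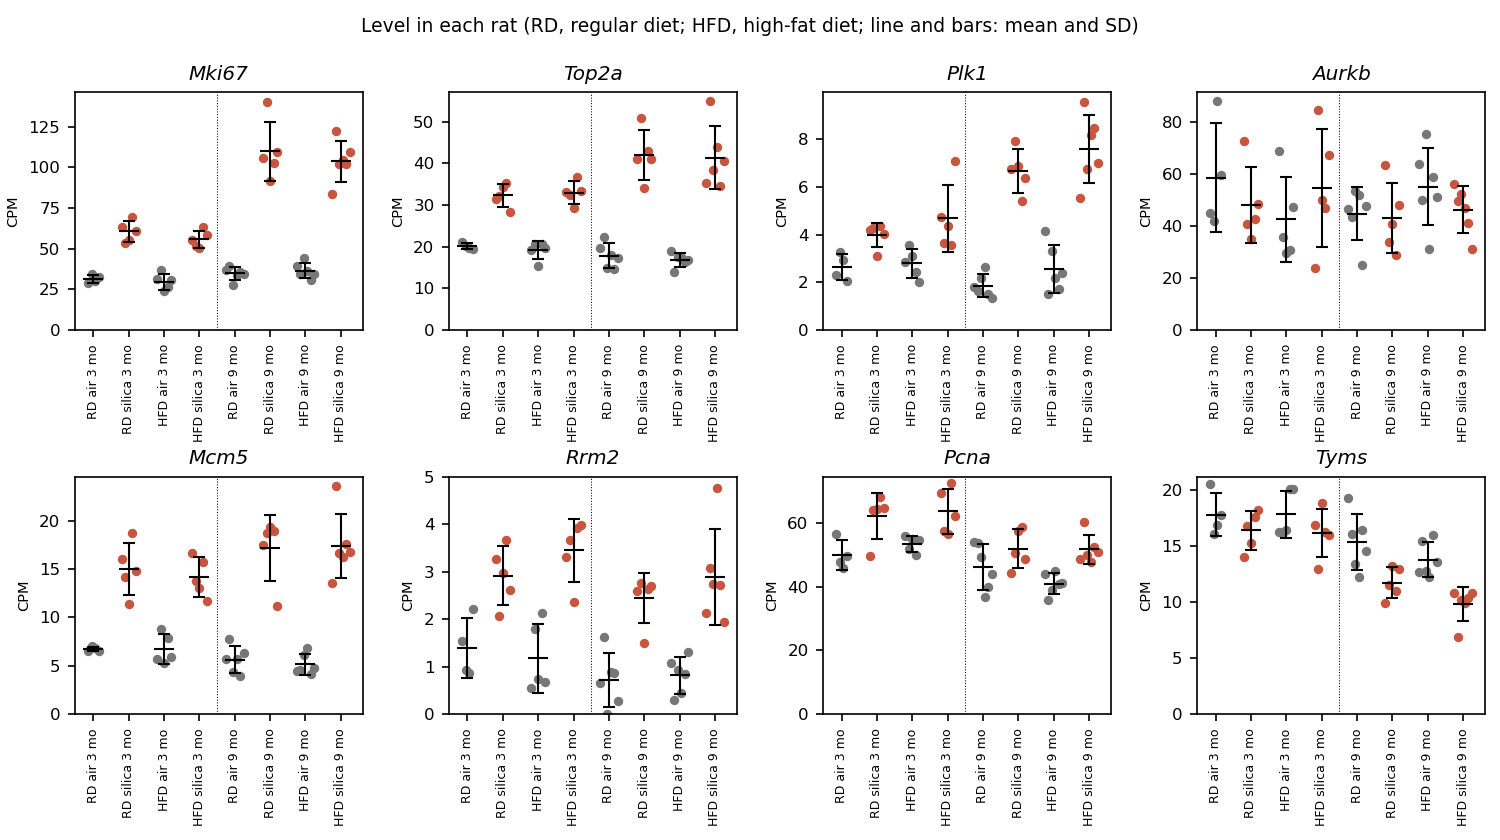
CPM of 8 genes in every rat, with 1 panel per gene and 1 column per group; grey points are air rats, red points silica rats, and lines with bars the mean and SD. The silica rats of Mki67, Top2a and Mcm5 lie above all air rats of the same diet and time, those of Pcna overlap them on the regular diet, those of Aurkb overlap them throughout, and the means of Tyms are lower at 9 months.

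Among kinases and cyclins, Cdk1 rose in all 4 comparisons. Its air rats had 4.06, 3.27, 2.92 and 4.6 CPM on the regular diet at 3 months and its silica rats 8.89, 9.49, 9.03, 10.4 and 9.39 CPM, which gave 1.34 on the log2 scale (SE 0.20, adjusted p = 5.49e-05) that was the largest of the mitosis genes there. High-fat air rats had 5.72, 5.69, 3.83, 3.81 and 6.19 CPM and silica rats 11.3, 6.88, 6.72, 8.75 and 10.3 CPM, a log2 fold change of 0.78 (adjusted p = 0.00252). Its later changes, at 9 months, were 1.18 and 0.83 on the log2 scale (adjusted p = 2.92e-06 and 0.000125), and the 4 pairs of groups did not overlap. Ccnb1, cyclin B1, the partner of Cdk1, rose by 0.99 and 1.04 at 3 months and by 1.52 and 1.32 at 9 months (log2). Its level in regular-diet rats at 3 months went from 2.51, 2.8, 1.54 and 2.9 CPM to 5.14, 3.99, 4.95, 6.35 and 4.28 CPM. Ccna2, cyclin A2, rose by 0.84 and 1.19 at 3 months, the second being the largest change of a mitosis gene on the high-fat diet, and by 1.28 and 1.54 at 9 months.

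Plk1, the polo-like kinase needed for spindle assembly and division, had the largest difference between time points on the regular diet. At 3 months it had 2.32, 3.27, 2.92 and 2.04 CPM in regular-diet air rats and 4.21, 4.26, 3.09, 4.35 and 4 CPM in silica rats, a log2 fold change of 0.57 with an adjusted p of 0.104, above the threshold. High-fat rats went from 2.86, 3.57, 3.1, 2.44 and 2.01 CPM to 4.72, 3.66, 4.36, 3.57 and 7.08 CPM (log2 fold change 0.75, adjusted p = 0.0145). Without silica rat 5, the highest, that change was 0.55 with an adjusted p of 0.0566. At 9 months regular-diet air rats ranged from 1.35 to 2.64 CPM (median 1.71) and silica rats had 6.75, 7.92, 6.89, 5.41 and 6.38 CPM. Its 1.82 on the log2 scale (SE 0.22, adjusted p = 2.66e-07) was the largest of the mitosis genes in that comparison. The high-fat diet gave 1.48 to 4.13 CPM (median 2.29) in air and 5.52 to 9.57 CPM (median 7.61) after silica, or 1.55 on the log2 scale (SE 0.20, adjusted p = 3.39e-07).

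The 2 aurora kinases had fewer calls than Cdk1. Aurka, which matures spindle poles, was not called at 3 months (log2 fold changes 0.30 and 0.39, adjusted p = 0.212 and 0.0852) and rose at 9 months by 0.60 and 0.93 (adjusted p = 0.00147 and 4.79e-06). Aurkb, the kinase of the chromosomal passenger complex, was called in no silica comparison (adjusted p = 0.522, 0.456, 0.810 and 0.268). Its log2 fold changes were -0.30 (95% interval -0.91 to 0.31) and 0.35 (-0.23 to 0.93) at 3 months and -0.07 (-0.49 to 0.35) and -0.26 (-0.66 to 0.14) at 9 months. Rats of a group spread widely for Aurkb, from 42 to 88.2 CPM in regular-diet air rats and from 23.8 to 84.5 CPM in high-fat silica rats at 3 months. Birc5 (survivin), a partner of Aurkb in the same complex, went from 1.74, 1.56, 0.859 and 1.36 CPM to 2.49, 2.34, 2.35, 2.84 and 2.48 CPM on the regular diet at 3 months (log2 fold change 0.85, adjusted p = 0.0324). That p was 0.0902 with DESeq2, 0.0514 with no filter on low counts and 0.0760 with the ribosomal RNA covariate. It had 1.91, 1.14, 1.64, 1.37 and 1.17 CPM in high-fat air rats and 2.83, 1.17, 2.61, 1.61 and 2.21 CPM in silica rats, which overlapped (log2 fold change 0.53, adjusted p = 0.166). By 9 months it had risen by 1.33 and 1.39 on the log2 scale without overlap.

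Most genes of the centromere and the spindle checkpoint rose. Cenpe and Cenpf, motor and scaffold proteins of the kinetochore, rose by 0.64 and 0.53 on the regular diet and by 0.89 and 0.85 on the high-fat diet at 3 months. At 9 months Cenpe rose by 1.29 (adjusted p = 4.17e-08) and 1.5 (adjusted p = 1.19e-09), and Cenpf by 1.14 (adjusted p = 8.74e-09) and 1.13 (adjusted p = 3.49e-09). The checkpoint kinases Bub1 and Bub1b rose in all 4 comparisons, by 0.73 and 0.70, 0.72 and 1.00, 0.85 and 1.54, and 1.15 and 1.55. Bub1b had the largest change of the mitosis genes on the high-fat diet at 9 months. Cdc20, which starts anaphase through the anaphase-promoting complex, rose by 0.67 on the regular diet at 3 months (adjusted p = 0.00691). It was 0.32 on the high-fat diet (adjusted p = 0.191), and rose by 0.68 and 0.97 at 9 months. The first of these was 0.23 (adjusted p = 0.605) with the ribosomal RNA covariate. Cenpf on the regular diet at 3 months had an adjusted p of 0.0476. It was 0.138 without air rat 1, 0.0609 with limma voom, 0.0674 with the ribosomal RNA covariate and 0.0688 with only the 2 groups compared in the fit.

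Spindle motors and cytokinesis genes also rose. Kif11, the motor that pushes spindle poles apart, rose by 0.97 and 0.66 at 3 months and 1.25 and 1.39 at 9 months. Kif20a, a motor of the cleavage furrow, rose by 1.14 and 0.97, and then by 1.69 and 1.37. Tpx2, an activator of spindle assembly, rose by 1.11 and 1.02, and then by 1.49 and 1.20. Ect2, an exchange factor that activates RhoA at the cleavage furrow, rose by 0.70 and 0.95 at 3 months and 1.22 and 1.27 at 9 months. Kif23, a motor of the central spindle, was the exception: at 3 months it was 0.15 (adjusted p = 0.460) and 0.16 (adjusted p = 0.394), and at 9 months it rose by 0.48 and 0.37.

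**Figure D4:**
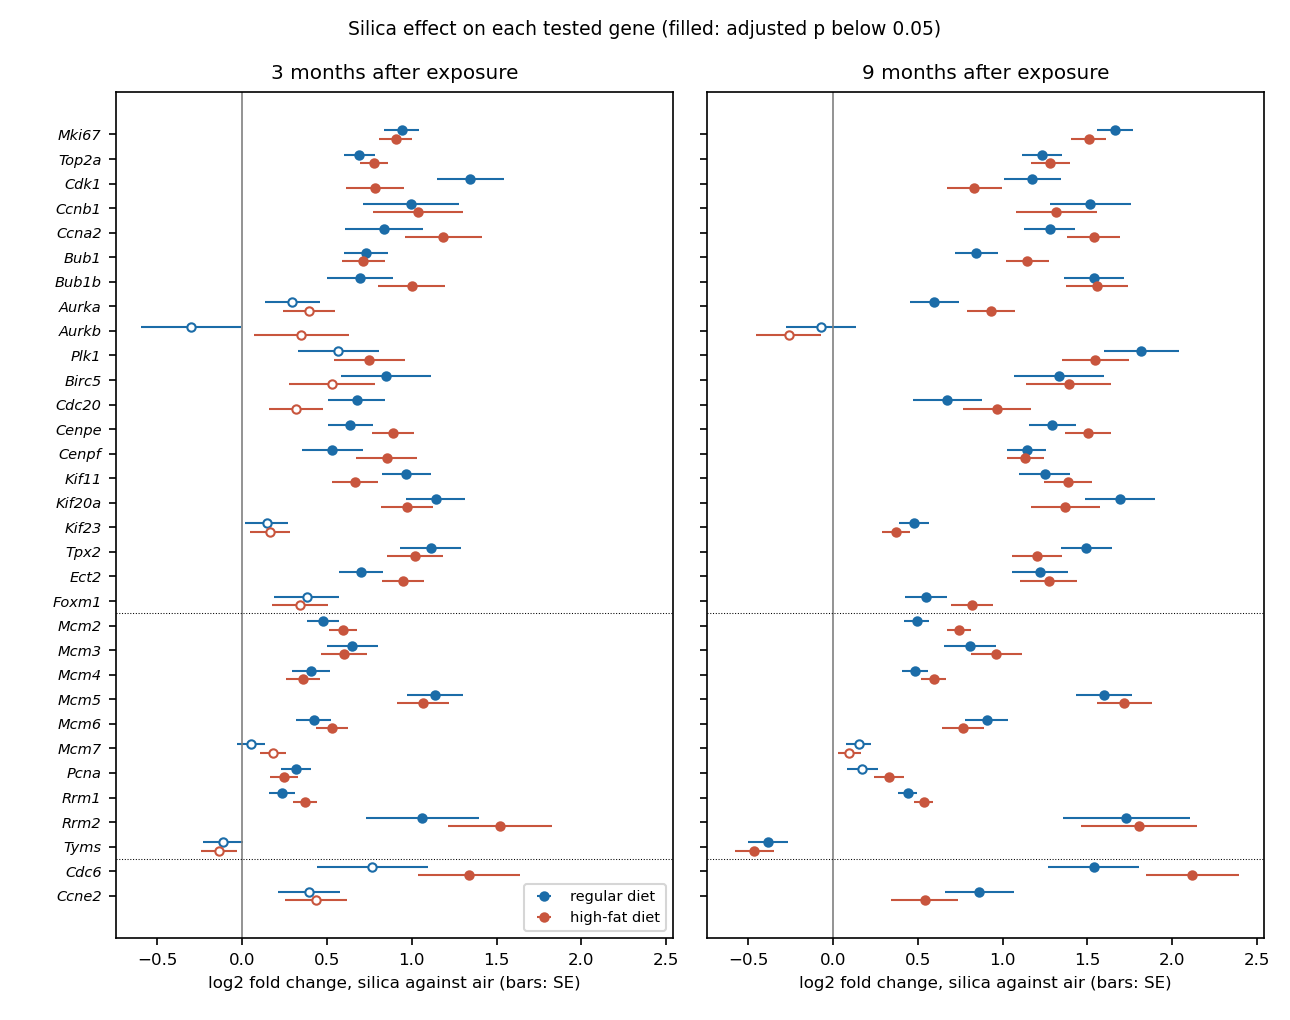
Log2 fold change of silica against air for the 32 tested genes at 3 months (left) and 9 months (right), with bars of 1 SE; blue is the regular diet, red the high-fat diet, and filled points have an adjusted p below 0.05. Dotted lines part mitosis, replication and G1/S genes from the top. Most points lie right of 0 and further right at 9 months. Tyms lies left of 0 throughout, and Aurkb does so except on the high-fat diet at 3 months.

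The helicase genes Mcm2 to Mcm6 rose in all 4 comparisons, while Mcm7 did not pass the test in any. Mcm5 had the largest change of the 6. Its air rats had 6.57, 7, 6.87 and 6.48 CPM on the regular diet at 3 months and its silica rats 16.1, 14.2, 11.4, 18.7 and 14.8 CPM. High-fat rats had 5.72, 8.77, 5.28, 7.92 and 5.86 CPM in air and 16.7, 13.8, 13.1, 15.7 and 11.7 CPM after silica. The log2 fold changes were 1.14 (SE 0.16, adjusted p = 4.76e-05) and 1.07 (SE 0.15, adjusted p = 3.38e-05). At 9 months they were 1.60 (SE 0.16, adjusted p = 1.74e-08) and 1.72 (SE 0.16, adjusted p = 2.01e-09), from 3.88 to 7.76 CPM (median 5.68) to 17.5, 18.8, 19.3, 19 and 11.2 CPM on the regular diet, and from 4.12 to 6.83 CPM (median 4.7) to 13.6 to 23.6 CPM (median 16.7) on the high-fat diet. None of these groups overlapped.

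Smaller steps were seen in the other helicase genes. Mcm2 went from 19.3, 21, 18.5 and 19.9 CPM to 28.5, 24.9, 28.8, 28.8 and 26.5 CPM on the regular diet at 3 months, and from 19.1, 23.9, 17.3, 20.9 and 21.4 CPM to 32, 33.1, 32.9, 30.6 and 26.4 CPM on the high-fat diet. Its log2 fold changes were 0.48 and 0.60 at 3 months and 0.49 and 0.74 at 9 months, all without overlap. Mcm3 rose by 0.65 and 0.60 and then by 0.81 and 0.96, Mcm4 by 0.40 and 0.36 and then by 0.48 and 0.59, and Mcm6 by 0.42 and 0.53 and then by 0.91 and 0.77. The intervals of Mcm7 were -0.12 to 0.22 and 0.02 to 0.34 at 3 months, and 0.00 to 0.30 and -0.05 to 0.24 at 9 months, around log2 fold changes of 0.05, 0.18, 0.15 and 0.10.

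The genes of nucleotide supply split. Rrm2, the regulated subunit of ribonucleotide reductase, had the largest change of the replication genes in 3 of the 4 comparisons, on low counts. It stood at 1.54, 0.934, 0.859 and 2.22 CPM in regular-diet air rats at 3 months and at 3.27, 2.06, 2.97, 3.68 and 2.62 CPM in silica rats (log2 fold change 1.06, SE 0.33, adjusted p = 0.0324). The high-fat diet gave 0.544, 1.79, 0.729, 2.13 and 0.67 CPM in air and 3.31, 3.66, 2.37, 3.93 and 3.98 CPM after silica (1.52, SE 0.31, adjusted p = 0.00125). At 9 months the 6 regular-diet air rats held 26 counts together (0 to 1.62 CPM, median 0.758) and the silica rats had 2.6, 2.76, 1.5, 2.64 and 2.71 CPM, or 1.73 on the log2 scale (SE 0.38, adjusted p = 0.000523). High-fat air rats ranged from 0.297 to 1.31 CPM (median 0.89) and silica rats from 1.94 to 4.77 CPM (median 2.73), or 1.80 on the log2 scale (SE 0.34, adjusted p = 9.24e-05). With the ribosomal RNA covariate the regular-diet change at 9 months was 1.36 (adjusted p = 0.0750). Rrm1, the large subunit, rose by 0.24 and 0.37 at 3 months and by 0.44 and 0.54 at 9 months. The first had an adjusted p of 0.0385, which was 0.0510 with DESeq2 and 0.0989 with only the 2 groups compared in the fit.

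Tyms was the only one of the 32 tested genes that fell. At 3 months its rats overlapped, with 20.5, 16, 16.8 and 17.7 CPM in air and 14, 16.8, 15.2, 17.6 and 18.2 CPM after silica on the regular diet, and 16.2, 16.2, 16.4, 20.1 and 20.1 CPM against 16.9, 12.9, 18.8, 16.3 and 15.9 CPM on the high-fat diet. The log2 fold changes were -0.11 (adjusted p = 0.540) and -0.14 (adjusted p = 0.449). At 9 months it ranged from 12.2 to 19.2 CPM (median 15.3) in regular-diet air rats, and silica rats had 9.87, 11.5, 13.2, 10.9 and 12.9 CPM, or -0.38 on the log2 scale (SE 0.12, adjusted p = 0.00962). With the ribosomal RNA covariate it was -0.46 (adjusted p = 0.0516). High-fat air rats had 12.2 to 16 CPM (median 13.2) and silica rats 6.83 to 10.8 CPM (median 10.3). These did not overlap, as in the lower direction for 12.8% of all genes tested, and the log2 fold change was -0.46 (SE 0.12, adjusted p = 0.00172).

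The changes of Pcna were small. In regular-diet rats at 3 months it stood at 56.6, 47.6, 46 and 49.8 CPM in air and 49.6, 64.2, 64.5, 68.1 and 64.6 CPM after silica (log2 fold change 0.32, adjusted p = 0.0181). For the high-fat diet it stood at 55.8, 51.8, 54.9, 49.9 and 54.7 CPM and 69.5, 57.6, 56.5, 72.7 and 62.1 CPM (0.25, adjusted p = 0.0432). That p was 0.0596 with no filter on low counts and 0.0761 with the ribosomal RNA covariate. At 9 months the change was 0.17 (adjusted p = 0.133) on the regular diet, where air rats ranged from 36.8 to 54.1 CPM (median 46.6) and silica rats had 44.3, 50.6, 57.4, 58.8 and 48.7 CPM. It was 0.33 (adjusted p = 0.0033) on the high-fat diet, from 35.8 to 45 CPM (median 41.1) to 47.9 to 60.5 CPM (median 50.4), and the adjusted p was 0.0508 with the covariate.

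The pair of S-phase entry genes rose at 9 months. Cdc6 had 1.93, 0.934, 0.515 and 2.73 CPM in regular-diet air rats at 3 months and 2.65, 1.24, 2.6, 3.51 and 3.04 CPM in silica rats (log2 fold change 0.77, adjusted p = 0.112). In high-fat rats it went from 1.36, 1.3, 1.46, 0.913 and 1.17 CPM to 3.31, 2.93, 3.61, 3.21 and 2.65 CPM (1.34, adjusted p = 0.00337). At 9 months it went from 0.978 to 1.62 CPM (median 1.5) to 2.94, 5.17, 4.5, 4.35 and 2.13 CPM on the regular diet, and from 0.436 to 1.6 CPM (median 0.795) to 2.55 to 5.81 CPM (median 4.43) on the high-fat diet. The second, 2.12 on the log2 scale (SE 0.27, adjusted p = 4.67e-07), was the largest of all 32 genes in any silica comparison. Ccne2, cyclin E2, a partner of Cdk2 at the start of S phase, was 0.39 and 0.43 at 3 months (adjusted p = 0.148 and 0.112). It rose by 0.86 and 0.54 at 9 months (adjusted p = 0.00113 and 0.0243), and with the ribosomal RNA covariate these were 0.63 and 0.40 (adjusted p = 0.117 and 0.184).

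Some calls did not hold with single rats left out or with the ribosomal RNA share in the fit. On the regular diet at 3 months, 8 replication genes were called with all rats, 5 without air rat 2, 4 without air rat 3 and 5 without silica rat 4. There Ccnb1 and Mcm4 were not called without air rat 3, Ccna2 without air rat 2 or Bub1b without air rat 4, and Pcna was not called without air rat 2, air rat 3 or silica rat 4. Rrm2 was not called without air rat 1, 2 or 3 or silica rat 3 or 4, and Birc5 without air rat 3 or 4 or silica rat 4 or 5. Rrm1 lost its call when any 1 of 8 rats was left out, and Cenpf when any 1 of 11 was. Cdc6 was called without air rat 4 or silica rat 2. In high-fat rats at 3 months Pcna was not called when any 1 of 8 rats was left out, while Aurka was called without silica rat 3 and Mcm7 without air rat 2. At 9 months Ccne2 was not called on the high-fat diet without air rat 5 or silica rat 4, 5 or 6, and Mcm7 was called on the regular diet without air rat 5. With that share as a covariate, 25 genes were called on the regular diet at 9 months and 28 on the high-fat diet, where 29.8% and 43.9% of all genes were called in either direction. The calls lost were those of Cdc20, Rrm2, Tyms and Ccne2 on the regular diet and of Pcna and Ccne2 on the high-fat diet. At 3 months the covariate ended the calls of Birc5 and Cenpf on the regular diet and of Pcna on the high-fat diet. The class medians with the covariate at 9 months were 1.28 and 1.29 for mitosis genes and 0.49 and 0.66 for replication genes. Because the share did not overlap between air and silica rats at 9 months, these fits cannot tell share and silica apart.

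Other genes of division were taken from lists of mitosis, replication, regulators, inhibitors and histones. Their counts stand beside 10.2% and 9.23% of all genes called higher and 6.6% and 8.19% called lower at 3 months. At 9 months these shares were 24.5% and 26.7% higher and 20.6% and 24.9% lower. Of the other mitosis genes, 11 of 24 tested rose on the regular diet and 15 of 24 on the high-fat diet at 3 months, and 23 of 26 rose on each diet at 9 months. Cdca3, a trigger of mitotic entry, rose by 1.24 and 1.51 at 3 months and by 1.51 and 1.71 at 9 months. Ccnf, cyclin F, rose by 1.69 on the high-fat diet at 9 months (adjusted p = 6.5e-11). Kif4a, a chromosome-bound kinesin, fell each time, the only one of the list to do so: by 0.81 on the regular diet and 0.51 on the high-fat diet at 3 months, and by 0.91 and 0.99 at 9 months (log2). Its mean fell from 38.3 ± 6.87 CPM (SD, n = 6) to 19.1 ± 2.99 CPM (n = 6) on the high-fat diet at 9 months. The list medians were 0.58, 0.74, 1.16 and 1.29.

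Of 32 other replication genes tested, 7 and 9 rose at 3 months and 18 and 21 at 9 months. For these and the next lists, 10.2% and 9.23% of all genes were called higher at 3 months and 24.5% and 26.7% at 9 months. Uhrf1, which carries DNA methylation marks over replication, had the smallest p of the list each time and rose by 0.83, 1.02, 1.41 and 1.46. Pola2, a subunit of DNA polymerase alpha, fell by 0.55 on the regular diet at 9 months (adjusted p = 0.000139) together with Rfc1, a clamp loader subunit (fell by 0.14, adjusted p = 0.0433). In high-fat rats Dut, an enzyme of nucleotide supply, fell by 0.43 (adjusted p = 0.00173). Among replication-dependent histone genes, which near-identical copies make uncertain, 6 and 8 of 25 rose at 3 months and 18 and 20 of 25 at 9 months. Hist1h2bk rose by 1.42 and 1.85 at 9 months. Among the regulators of the cycle, 5 of 19 tested rose on the regular diet at 3 months, and 7 of 19 rose and 1, the cyclin gene Ccnd1, fell on the high-fat diet. At 9 months 12 of 20 rose and 1 fell on the regular diet, and 9 rose and 3 fell on the high-fat diet, with Rbl2 lower on both and Ccnd1 and Ccnd3 lower on the high-fat diet. Of all genes, 8.19% were called lower on the high-fat diet at 3 months. At 9 months 20.6% were lower on the regular diet and 24.9% on the high-fat diet, so such falls are no more frequent among the regulators. The list medians were 0.16, 0.11, 0.29 and 0.22. Rbl1, a member of the retinoblastoma family, and Mybl2, a mitosis activator, rose on both diets at 3 months (0.79 and 0.48 for Rbl1, 0.79 and 1.02 for Mybl2). Myc rose by 0.76 and 0.99 at 9 months, and cyclin E1, Ccne1, by 1.95 and 2.09.

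Of 8 inhibitors of the cycle tested, 2 fell on each diet at 3 months: Cdkn1c by 0.41 and 0.60 and Cdkn1b by 0.22 and 0.28. Of all genes, 6.6% and 8.19% were called lower there. At 9 months Cdkn1c fell by 0.36 and 0.49, and Btg1 rose by 0.31 on the regular diet. Of all genes, 20.6% and 24.9% were called lower at that time, and 24.5% higher on the regular diet.

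Markers of other cells moved with the same exposure, and their part in the results was not tested. Beside the counts below, 10.2% and 9.23% of all genes were called higher at 3 months and 6.6% and 8.19% lower, regular diet first. For 9 months the shares were 24.5% and 26.7% higher and 20.6% and 24.9% lower. Macrophage markers rose in 4 of 7 and 4 of 7 tested at 3 months and 6 of 8 and 7 of 8 at 9 months. Their summed level was 622 to 725 CPM in air and 815 to 1184 CPM in silica rats fed the regular diet at 3 months, and 529 to 615 and 693 to 814 CPM on the high-fat diet. The 9-month sums were 716 to 930 and 1088 to 1437 CPM on the regular diet, and 583 to 676 and 993 to 1210 CPM on the high-fat diet. One of them, Marco, was at 0 in 17 rats. Neutrophil markers rose in 5 and 2 of 5 at 3 months and in 5 and 4 of 5 at 9 months, with sums of 136 to 186 and 512 to 787 CPM (regular diet) and 102 to 268 and 430 to 568 CPM (high-fat diet) at 3 months. At 9 months these sums were 108 to 380 and 523 to 1393 CPM, and 168 to 297 and 903 to 1165 CPM. Alveolar type 2 markers rose in 6 of 7 on both diets at 3 months and in 5 and 6 of 7 at 9 months, where 1 of 7 fell. T cell markers rose in none of 6 at 3 months and in 6 and 3 of 6 at 9 months, with sums at 9 months of 20.2 to 39.1 and 38.1 to 76.2 CPM on the regular diet and 31.5 to 37.3 and 39.2 to 64.2 CPM on the high-fat diet. Myeloid precursor markers summed to at most 1.26 CPM in any rat, with Mpo at 0 in 29 rats, Elane in 23 and Ctsg in 37. None of the 5 tested B cell markers was called. Endothelial markers fell in 4 and 5 of 6 at 3 months and 5 and 6 of 6 at 9 months, and alveolar type 1 markers in 5 and 4 of 5 and then in 5 and 5 of 5. Fibroblast markers fell in 2 and 2 of 5 at 3 months and in 4 and 5 of 5 at 9 months. At 3 months their sums overlapped, at 670 to 802 CPM in air and 572 to 682 CPM after silica (regular diet) and 719 to 989 and 583 to 776 CPM (high-fat diet). At 9 months they did not, at 481 to 624 and 335 to 449 CPM on the regular diet and 627 to 660 and 344 to 425 CPM on the high-fat diet. Among these markers Col1a2 was at 0 in 40 rats. Plasma cell markers rose in 1 and 2 of 3 at 3 months and in 2 and 2 of 3 at 9 months. Their sums were 198 to 214 and 229 to 306 CPM (regular diet) and 168 to 210 and 222 to 299 CPM (high-fat diet) at 3 months, and 189 to 239 and 231 to 295 CPM and 173 to 198 and 240 to 276 CPM at 9 months. These sums mostly follow Sdc1, with a median of 198.8 CPM over all rats. Prdm1 had 27.86 CPM, Mzb1 4.171 CPM and Tnfrsf17, at 0 in 6 rats, 0.5278 CPM. Erythroid markers fell in 2 of 4 at 3 months and 3 of 4 at 9 months on the high-fat diet and in none on the regular diet.

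The second question was whether the diet altered these genes. None of the 32 was called between diets, in air or after silica, or in the interaction, which is the silica effect on the high-fat diet minus that on the regular diet, in edgeR's test, and DESeq2 and limma voom also called none. In air, 2.95% of all genes were called between diets at 3 months and 15.2% at 9 months. After silica the shares were 0.702% and 3.52%, and for the interaction 0% and 1.09%. At an unadjusted p below 0.05, 2 of the 32 genes (6.25%) differed in air and 3 (9.38%) after silica at 3 months, beside 21% and 12.4% of all genes. At 9 months 6 (18.8%) and 0 did, beside 29.1% and 17.7% of all genes. For the interaction there was 1 at each time (3.12%), beside 6.5% and 14.2% of all genes: Cdk1 at 3 months (-0.56, interval -1.12 to -0.01, adjusted p = 0.763) and Mcm2 at 9 months (0.25, interval 0.04 to 0.46, adjusted p = 0.265). The smallest adjusted p was 0.0539, for Mcm2 in air at 9 months, whose log2 difference of high-fat from regular diet was -0.21 (interval -0.36 to -0.06). After silica at 3 months, Cdc20 had 5.46, 5.5, 6.93, 6.86 and 5.11 CPM on the regular diet and 4.41, 4.69, 5.1, 5 and 4.72 CPM on the high-fat diet. These did not overlap, as in the lower direction for 1.23% of all genes, and the adjusted p was 0.363.

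The precision of these diet values was limited. The median half-width of the 95% interval over the 32 genes was 0.37 in air and 0.27 after silica at 3 months, and 0.328 and 0.279 at 9 months, on the log2 scale. For the interaction it was 0.471 and 0.435. After silica at 9 months the 32 differences between diets ran from -0.26 to 0.21. These intervals are not adjusted for the number of genes, while the test is. A gene could thus differ by those widths or more between diets and not pass the test. With the share of ribosomal RNA in the fit, 0.00655% of all genes were called between diets in air at 9 months, in place of 15.2%. The share did not overlap between those diet groups, so diet and share cannot be told apart there. In air at 9 months, 1 or 2 members of the set were called in fits with single rats left out, all of them lower on the high-fat diet, and 1, Mcm2, was called with DESeq2's size factors. Leaving out regular-diet air rats 1, 4 or 6, regular-diet silica rat 5, high-fat air rat 6 or high-fat silica rat 5 gave 1, and leaving out regular-diet air rat 5 or high-fat silica rat 2 gave 2. The 21 genes called higher on both diets at 3 months were 21 of 23 on each. At 9 months 28 were higher on both, of 28 on the regular and 29 on the high-fat diet. Calls shared by both diets were not counted over all genes, so these counts do not show whether such overlap is particular to this set.

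The third comparison asked whether the silica effect differed between 3 and 9 months, with all 8 groups in 1 fit. The effect at 9 months was larger for 4 genes on the regular diet and 4 on the high-fat diet, and smaller for none, beside 3.71% and 6.54% of all genes called larger. For the regular diet these were Mki67 (difference 0.71, SE 0.16, adjusted p = 0.00404), Top2a (0.53, SE 0.16, adjusted p = 0.0312), Plk1 (1.24, SE 0.34, adjusted p = 0.0204) and Cenpe (0.64, SE 0.20, adjusted p = 0.0451). For the high-fat diet they were Mki67 (0.60, SE 0.15, adjusted p = 0.00674), Top2a (0.50, SE 0.15, adjusted p = 0.0258), Cenpe (0.61, SE 0.19, adjusted p = 0.0347) and Kif11 (0.72, SE 0.20, adjusted p = 0.0153). All of these are mitosis genes, and no replication gene was called in this fit, but no test was made between the classes. With limma voom, the replication gene Mcm5 was called on the high-fat diet (difference 0.70, adjusted p = 0.0297). The difference was above 0 in 28 and 29 of the 32 genes. Such signs were not counted over all genes, and the genes were read in the same rats, so this is a description only. With the share of ribosomal RNA in the fit, 1 gene, Mki67, was called on the regular diet, and on the high-fat diet Top2a and Cenpe were not (adjusted p = 0.0628 and 0.0594) while Foxm1 and Mcm5 were (0.0449 and 0.0412). That share did not overlap between air and silica rats at 9 months, so share and silica cannot be told apart there.

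These counts depended on single rats. On the regular diet the count was 1 without 3-month air rat 2 or 3. It was 2 without 3-month air rat 1 or 4, 3-month silica rat 2 or 5, 9-month air rat 3, 5 or 6, or 9-month silica rat 2. On the high-fat diet it was 1 without 3-month air rat 2, and 2 without 3-month air rat 5, 3-month silica rat 2 or 3, or 9-month air rat 2. Of the 42 fits with 1 rat left out, Cenpe lost its call in 25 on the regular diet and in 12 on the high-fat diet, and Top2a in 11 and 6. On the regular diet these included fits without a high-fat rat, such as high-fat silica rat 5 at 3 months (adjusted p = 0.0561 for Cenpe). Plk1 lost its call in 2 on the regular diet and Kif11 in 1 on the high-fat diet. Some fits with 1 rat left out gained calls: Bub1b, Cenpf and Mcm6 on the regular diet, and Plk1, Cdc20 and Mcm5 on the high-fat diet. With no filter on low counts the adjusted p was 0.0510 for Top2a and 0.0692 for Cenpe (regular diet) and 0.0567 for Cenpe (high-fat diet). Mki67 remained called on both diets in each of these fits. The 3-month and 9-month rats stand in separate tables, and whether they were sequenced together is not given in the sources used here, so time and run cannot be told apart for levels. Each silica effect was taken within its own time point.

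**Figure D5:**
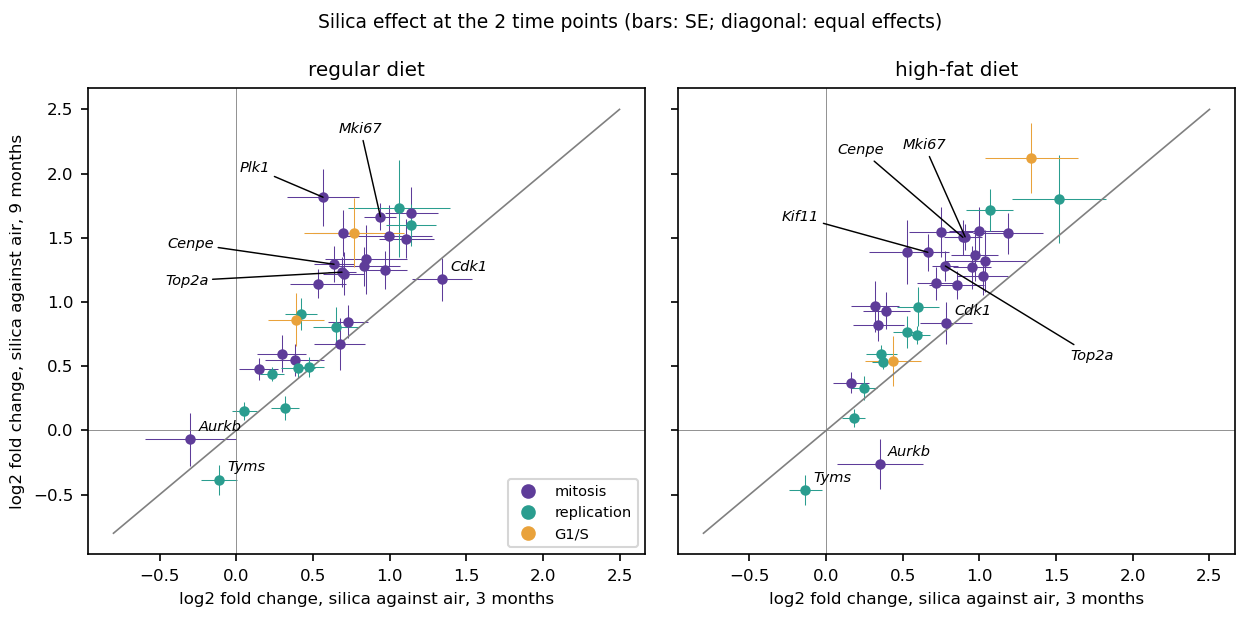
Log2 fold change of silica against air at 3 months (horizontal) and at 9 months (vertical) for the 32 tested genes, regular diet on the left and high-fat diet on the right, with bars of 1 SE. Points above the diagonal have the larger effect at 9 months, as for Mki67 and Top2a on both diets. Tyms lies below 0 on both axes in both panels, and Aurkb does so on the regular diet.

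For some genes the counts may hold reads of other loci. Of the 33 genes, 11 have named pseudogenes in RefSeq, with 3 each for Aurka and Pcna and 2 for Ccnb2, and reads could be split among such copies. On GRCr8, another protein-coding gene overlaps 7 of them. The libraries were strand-specific, but whether the counting used strand is not given in the sources used here. Of these neighbours, Ide, which overlaps Kif11, rose by 0.32 on the high-fat diet at 9 months (adjusted p = 2.72e-05), against 1.39 for Kif11. Ints8, which overlaps Ccne2, fell by 0.19, 0.17 and 0.28 in 3 silica comparisons. The neighbours of Aurka, Kif20a and Rrm2, Fam210b, Cdc23 and Cys1, were called in none of the 4. Those of Plk1 and Foxm1, Ern2 and Tex52, did not pass the filter on low counts.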

How the data were processed

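Lung RNA of 42 rats was sequenced after ribosomal RNA removal with a stranded kit, per the labels' protocols. The authors deposited raw read counts per gene symbol in 1 table for 3 months and 1 for 9 months. Per the submitters' processing notes, the tools were HTSeq 0.6.1, SAMtools 0.1.19, TopHat2 2.0.9, Trimmomatic 0.35, Bowtie2 2.2.9 and bcl2fastq 2.19, and the build was Rnor_6.0. The strand setting and the annotation's source are not given in the sources used here.

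From these counts, edgeR 4.0.16 (R 4.3.3) fitted 1 coefficient per group with the quasi-likelihood model and TMM scaling, after filterByExpr. The 4 groups of a table shared a fit, and all 8 groups shared one for the difference between time points. Tests covered 15234 genes at 3 months, 15276 at 9 months and 15759 in the joint fit, with Benjamini-Hochberg adjustment over all of them and a threshold of 0.05. SE is the log2 fold change divided by the root of F. Intervals are 95%. The test was checked on simulated data. The members, their roles, the lists and the genes named were chosen with earlier results of these data known. All 33 members are described, and in the other lists those with the smallest p or that went against their list. The alternatives were other size factors, no filter, DESeq2 1.42.0, limma 3.58.1 voom, edgeR's legacy setting, the ribosomal RNA share as a covariate, only the groups compared, and each rat left out. The lowest chi-square per degree of freedom between libraries of a group was 1.93, so none was taken as deposited more than once.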

Additional observations from a re-analysis of the deposited data

Results flagged for a closer look

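The levels of 14 genes and the sums of the 2 classes were looked at in each of the 8 groups, and 9 values (7.03%) stood apart from the rest of their group, where chance gives about 1 in 20. Top2a was 15.31 CPM in rat 3 of the high-fat air group at 3 months, the lowest there. Ccnb1 was 7.67 CPM in rat 5 of the high-fat silica group at 3 months, the highest. In the regular-diet silica group at 3 months, rat 3 was lowest for Plk1 (3.093 CPM) and rat 1 for Pcna (49.58 CPM). In the regular-diet silica group at 9 months, rat 2 was highest for Cdk1 (12.92 CPM), rat 5 lowest for Mcm5 (11.21 CPM) and rat 3 lowest for Rrm2 (1.498 CPM). In the high-fat silica group at 9 months, rat 2, the library with the fewest counts, was highest for Pcna (60.48 CPM) and lowest for Tyms (6.834 CPM).

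The silica effect differed between time points by edgeR's quasi-likelihood test of the difference itself, on the log2 scale. In regular-diet rats it was larger at 9 months by 0.71 for Mki67, 0.53 for Top2a, 1.24 for Plk1 and 0.64 for Cenpe. In high-fat rats it was larger by 0.60 for Mki67, 0.50 for Top2a, 0.61 for Cenpe and 0.72 for Kif11. Only Mki67 kept its call in all 42 fits with 1 rat left out. Cenpe lost it in 25 (regular diet) and 12 (high-fat diet), and Top2a in 11 and 6.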

How the results depend on the processing

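No gene changed direction among called values under the alternatives run. With all rats kept, the silica counts of genes called lay between 21 and 23 (23 as reported) on the regular diet and 22 and 23 (23) on the high-fat diet at 3 months, and between 25 and 30 (29) and 28 and 30 (30) at 9 months. With 1 rat left out they lay between 16 and 23, 21 and 24, 29 and 30, and 29 and 30. The replication count on the regular diet at 3 months, reported as 8, lay between 4 and 8 with 1 rat left out. The diet count in air at 9 months, reported as 0, was 1 with the size factors of DESeq2 (Mcm2) and 0 to 2 with 1 rat left out. The time count on the regular diet, reported as 4, was 2 with no filter, 1 with the share of ribosomal RNA in the fit and 1 to 5 with 1 rat left out. For the high-fat diet, reported as 4, it was 1 to 6 with 1 rat left out. The cause was not tested. No paired analysis was possible because each rat has its own tag and the rat numbers only name rats within a group. Depth limits Ccnb2, Rrm2, Birc5 and Cdc6 most, which have few counts per rat.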
